A study of Mus musculus with 4 samples.

Results

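The genes described here are 10 natural killer (NK) cell genes: the lectin-like receptor genes Klrc1, Klrd1, Klrk1, Klrb1c, Klre1 and Klrg1, the receptor gene Ncr1, the transcription factor gene Eomes, the cytokine receptor gene Il2rb and the kinase gene Txk. They were chosen by name, with their values in this comparison already known, and every probe set annotated to exactly 1 of their symbols was used. This gave 12 probe sets for 9 genes, of 45037 probe sets and 18193 genes in all. The probe set annotated to Klrb1c also names another gene, so no expression value is given for Klrb1c here. The samples were 4 mouse liver tumors, each on 1 Affymetrix whole-genome array. The tumors had grown from liver progenitor cells (LPCs) transplanted into the livers of recipient mice, were driven by HrasV12, an oncogenic RAS, and carried a tet-off short hairpin RNA against p53 (shp53). In the 2 day 0 samples no doxycycline had been given, so the hairpin kept p53 low. In the 2 day 8 samples the mice had eaten chow with doxycycline for 8 days, which switches the hairpin off and restores p53. No sample had doxycycline without the hairpin, so restored p53, doxycycline and the elapsed days cannot be told apart. The labels give neither the strain, the age nor the immune state of the recipient mice, and do not say whether replicates are separate animals, so the spread between them may be technical. The targeted gene was not analysed here.

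NK cells are innate lymphocytes that kill stressed or transformed cells without prior sensitization, and a balance of inhibitory and activating receptors sets whether they act. Many of these receptors are C-type lectin-like proteins encoded side by side in the NK gene complex. Klrc1 encodes NKG2A, an inhibitory receptor that works as a heterodimer with CD94, the product of Klrd1, and reads the nonclassical MHC molecule Qa-1. Klrk1 encodes NKG2D, an activating receptor for stress-induced ligands that signals through the adaptor DAP10, the product of Hcst. The comparison bears on how p53 restoration in a tumor relates to the NK cell genes read from it.

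Promoter windows show the DNA next to the start sites of Klrc1, which was lower at day 8, and of Klrk1, which was higher and stands 3 places before it in the order of protein-coding genes on chromosome 6. They are RefSeq windows of 250 bases before to 50 after the start, printed 5' to 3' on the gene's own strand. Capitals mark the letters of a RUNX element, TGTGGT on either strand.
Klrc1 promoter window, GRCm38.p6 chr6:129678924-129679223, minus strand: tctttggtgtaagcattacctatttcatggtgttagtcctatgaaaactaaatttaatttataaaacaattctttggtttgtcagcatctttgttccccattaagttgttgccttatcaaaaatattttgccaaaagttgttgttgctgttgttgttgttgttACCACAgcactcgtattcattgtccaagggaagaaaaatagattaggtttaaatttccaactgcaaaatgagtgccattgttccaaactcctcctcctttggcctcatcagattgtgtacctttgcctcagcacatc
Klrk1 promoter window, GRCm38.p6 chr6:129623815-129624114, minus strand: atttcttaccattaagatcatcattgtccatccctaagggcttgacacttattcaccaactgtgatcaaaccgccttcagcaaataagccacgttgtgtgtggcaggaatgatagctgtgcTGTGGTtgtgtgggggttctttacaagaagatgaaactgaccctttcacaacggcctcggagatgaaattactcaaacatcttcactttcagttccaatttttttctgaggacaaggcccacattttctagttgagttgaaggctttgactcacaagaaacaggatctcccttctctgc
RefSeq promoter windows were matched for 7 of the 10 genes, 10 windows in all. Klrd1, Klrg1 and Il2rb have no entry. The RUNX letters were in at least 1 window of 6 of these 7 genes, namely Klrc1, Klrk1, Klrb1c, Klre1, Ncr1 and Txk, and in 7 of the 10 windows, 2 of which (those of Ncr1) share nearly all their bases. Of all 32817 promoter windows 16.8% held these letters. The T-box letters AGGTGT, in 13.7% of all windows, and the STAT letters TTCNNNGAA, in 8.29%, were searched on both strands too and were in none of these 10 windows. The RUNX letters stood in the windows of Klrc1 and Klrk1 alike. A match is only a run of letters, and its use by a factor was not measured.

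Klrc1, the inhibitory NKG2A gene, gave a bright signal at day 0 and was lower at day 8. Its values (log2, made by the authors with RMA, which removes background, equalises the arrays and merges the probes of a set) were 12.36 and 12.30 at day 0 and 10.17 and 9.78 at day 8 in probe set 1425005_at. Both day 8 arrays were below both day 0 arrays, by at least 2.12 units, while the day 0 arrays were 0.0618 apart and the day 8 arrays 0.395. The mean went from 12.33 ± 0.0437 to 9.97 ± 0.28 (SD, n = 2 each), a difference of -2.35 ± 0.139 (SE), or 5.11-fold lower. At day 0, 97.9% of all probe sets on the array were dimmer than this probe set and at day 8 85.6% were. Brightness also depends on the probe's sequence, so a comparison with another gene's is only rough. The other Klrc1 probe set, 1426182_a_at, had 10.69 and 10.72 at day 0 and 8.43 and 7.62 at day 8. Its groups did not overlap either, with a difference of -2.68 ± 0.255 (6.41-fold lower). The second day 8 array was the lower one in both probe sets. Over all 18193 genes, 30 had a difference at or below that of Klrc1. Klrc1 and the other genes of the set were chosen on this contrast, so their differences are given as a description and without a p-value.

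**Figure D1:**
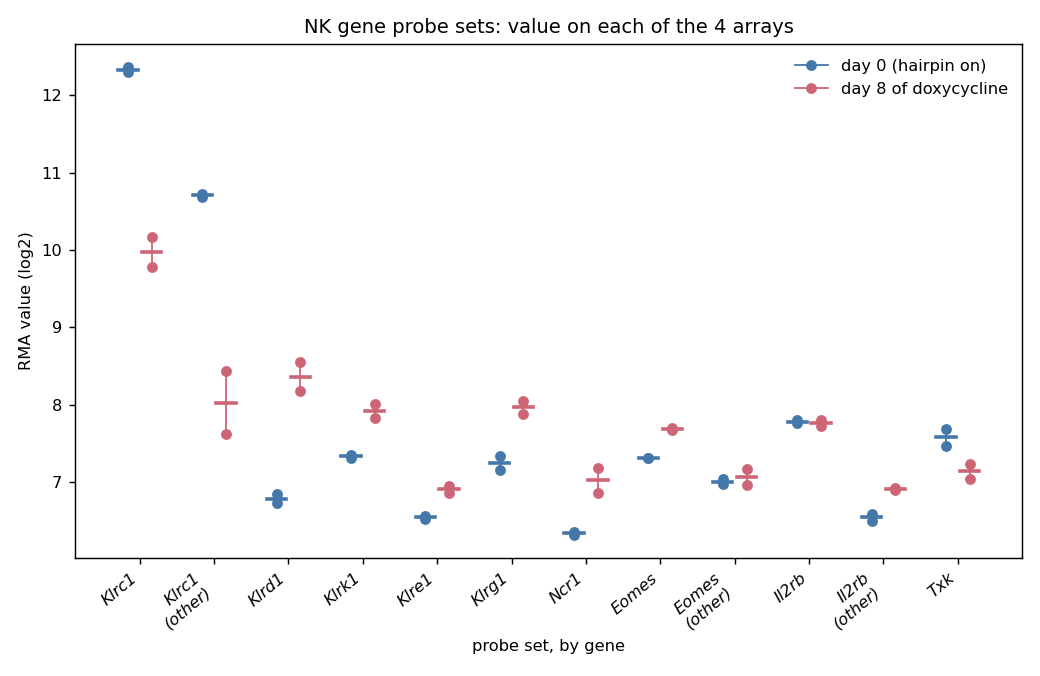
Log2 RMA value of each of the 12 probe sets (x axis, by gene; "other" is the second probe set of a gene) on the 2 day 0 arrays (blue) and the 2 day 8 arrays (red); points are single arrays and short bars are group means. Both Klrc1 probe sets lie lower at day 8, from 12.33 to 9.97 and from 10.70 to 8.02, and Klrd1 lies higher, from 6.79 to 8.36.

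Klrd1, which encodes the CD94 chain that NKG2A needs to reach the cell surface, stood the other way. Its values were 6.84 and 6.73 at day 0 and 8.17 and 8.55 at day 8 (probe set 1460245_at). The groups did not overlap, and the gap between them, 1.33, was larger than the gap within either group (0.11 and 0.383). The difference was 1.57 ± 0.138 (SE), or 2.98-fold higher, and 157 of 18193 genes had a difference at least as high. The genes of the NKG2A and CD94 chains, partners in 1 receptor, thus lay on opposite sides of the comparison. Their day 0 means were far apart, 12.33 for Klrc1 and 6.79 for Klrd1. The arrays read whole tumors, so which cells gave either signal, NK cells or others, was not measured.

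Klrk1, the gene of the activating receptor NKG2D, had 7.35 and 7.31 at day 0 and 7.82 and 8.01 at day 8 (1450495_a_at). Both day 8 arrays were above both day 0 arrays, with a difference of 0.59 ± 0.0898 (1.5-fold). Ncr1 encodes NKp46, an activating receptor largely restricted to NK cells and related innate lymphocytes. It had 6.35 and 6.32 at day 0 and 6.86 and 7.18 at day 8, a difference of 0.69 ± 0.118 (1.61-fold). Klre1, the gene of a receptor chain also called NKG2I, had 6.56 and 6.52 against 6.95 and 6.86. Its difference was among the smallest of those where the groups separated, at 0.37 ± 0.0763 (1.29-fold).

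Klrg1 encodes an inhibitory receptor of mature NK cells and effector T cells that binds cadherins. It had 7.34 and 7.15 at day 0 and 7.88 and 8.05 at day 8, a difference of 0.72 ± 0.104 (1.65-fold). Klrg1 and Klrc1 both encode inhibitory receptors, and they lay on opposite sides of the comparison.

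The genes that are not receptors for target cells gave mixed values. Eomes, a T-box transcription factor of NK cell maturation and of memory CD8 T cells, had 7.31 and 7.31 at day 0 and 7.67 and 7.70 at day 8 in its brighter probe set (0.37 ± 0.0697). Its other probe set had 6.97 and 7.04 against 6.96 and 7.17, so there the groups overlapped (0.06 ± 0.095). Il2rb, the chain shared by the receptors for IL-2 and IL-15, also had probe sets that disagreed. The brighter had 7.80 and 7.76 against 7.72 and 7.80, with overlapping groups (-0.02 ± 0.0739). The dimmer had 6.58 and 6.50 against 6.92 and 6.90, higher at day 8 by 0.37 ± 0.073. Txk, a Tec family kinase of T and NK cells, was lower at day 8, with 7.68 and 7.47 at day 0 and 7.04 and 7.23 at day 8 (-0.44 ± 0.111; 1.36-fold lower). Klrc1 was therefore not alone on the lower side, but Txk was dim, with means of 7.58 at day 0 and 7.13 at day 8. The gap between its groups was 0.238, and the gaps within them were 0.214 and 0.194.

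**Figure D2:**
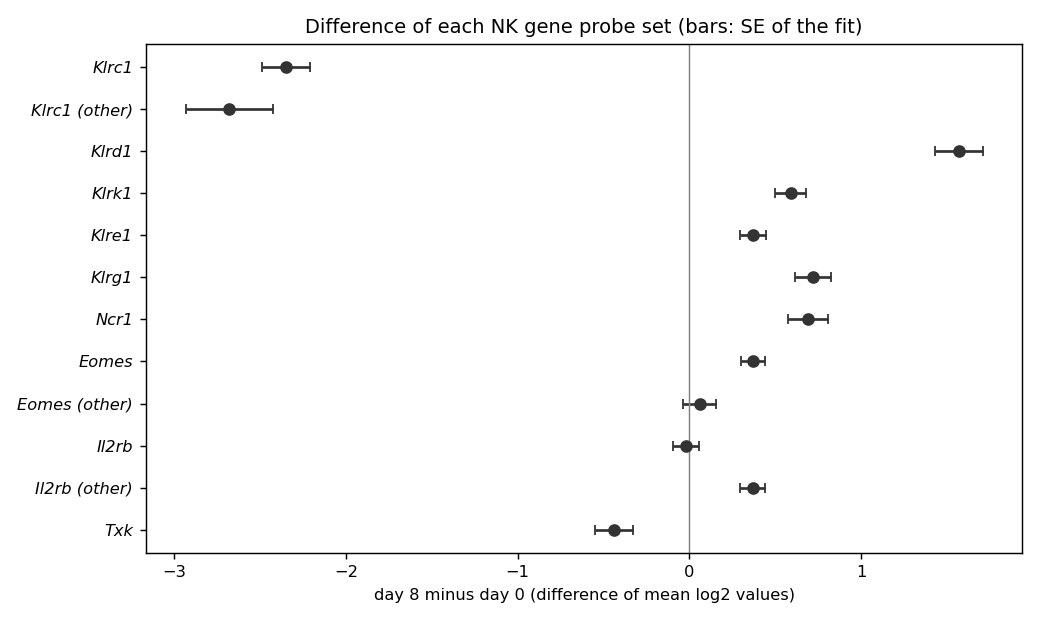
Difference between the day 8 mean and the day 0 mean (log2, x axis) of each of the 12 probe sets (y axis), with the SE of the limma fit as bars. The Klrc1 probe sets lie at -2.35 and -2.68, Txk at -0.44, and Klrd1 is the highest at 1.57.

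Of the 12 probe sets, 7 had both day 8 arrays above both day 0 arrays, 3 had both below and 2 overlapped. Over all probe sets the shares were 36.1% above and 27.7% below. With 1 probe set a gene, the brightest, 6 of the 9 genes were above and 2 below, where 36.3% and 30.4% of all genes were. Since the genes were picked on this contrast, nothing is read from these counts. The median difference was 0.48 over the 8 genes other than Klrc1 and 0.0228 over all 18193 genes. These arrays carry no call of presence, and most of the set was dim: 7 of the 9 genes lay in the lowest 40% of genes by mean value (below 7.63), and only Klrc1 and Il2rb lay above it. As a dim reference, 23 genes of unrelated tissues had mean log2 values of 7.03 and 7.15 at day 0 and 7.38 and 7.02 at day 8, uneven muscle genes included, with a median difference of 0.009. The day 0 means of Klrd1 (6.79), Klre1 (6.54) and Ncr1 (6.33) were no higher than that. Nor were the day 8 means of Klre1 (6.91) and Ncr1 (7.02), and that of Txk (7.13) lay between the 2 day 8 reference values. At day 0 Klrk1 (7.33), Klrg1 (7.24) and Eomes (7.31) were above the reference mean but below single reference genes such as Ins2 (8.50) and Oxt (9.79). Since brightness also depends on the probe's sequence, such comparisons between genes are only rough. Whether any of these genes was above background in the groups named is therefore not known. Changes of dim genes can be compressed by background signal. In bulk tissue, fewer cells of a type and less RNA per cell cannot be told apart.

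Other features of the arrays moved with the groups or stood apart. The difference between 3' and 5' control probe sets of beta-actin, a sign of RNA quality, was 0.39 and 0.26 at day 0 and 0.48 and 0.49 at day 8. Skeletal muscle genes were uneven: Acta1 had 9.43 and 10.86 at day 0 and 12.62 and 9.90 at day 8. The progenitor keratin gene Krt18 was high on all arrays (13.79 and 13.99, then 12.35 and 12.22), and of 9 measured progenitor and biliary markers 5 fell and 1 rose (limma adjusted p under 0.05; median difference -1.037), where 14.0% of all genes rose and 14.7% fell. The gene that rose, Epcam, was not called without day 0 replicate 2 (0.0514) or without probe sets marked for cross-hybridization (0.16; 0.196), and 6 fell when either day 8 array was left out. The hepatocyte marker Alb was dim throughout (7.07, 7.06, 7.39 and 6.96), and 1 of 8 hepatocyte markers, Hnf4a, fell. Without the day 8 array with the high Acta1 value (replicate 1) the difference was -2.55 for Klrc1, 1.77 for Klrd1, 0.68 for Klrk1 and 0.84 for Ncr1. The part of RNA quality and of progenitor cell content in the values of the NK genes was not tested.

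The position of the genes on the chromosome was not used in choosing them. Between Klrb1a and Klra2 on chromosome 6, the span of the NK gene complex, the RefSeq table (GRCm38.p6, used for gene order) lists 48 protein-coding genes, of which 32 were measured. In that order Klre1, Klrd1 and Klrk1 stand next to each other, followed by Klrc3, Klrc2 and Klrc1. The paralogs between the NKG2D and NKG2A genes were dim and not called: Klrc3 differed by -0.04 ± 0.0843 (limma adjusted p = 0.795) and Klrc2 by -0.09 ± 0.0769 (adjusted p = 0.46). Klrc1, Klrc2 and Klrc3 are close paralogs, so probes could in principle take up RNA of a sister gene; the probe sets of Klrc2 and Klrc3 were at 5.09 to 5.26 on all 4 arrays.

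Of the 28 measured genes of the complex outside the set, 5 rose, 1 fell and 22 were not called (limma, Benjamini-Hochberg adjusted p under 0.05 over all genes), against the 14.0% and 14.7% of all genes given above. Their median difference was 0.02. Klrb1a, the gene of a receptor of the NKR-P1 family, rose by 2.39 ± 0.118 (limma adjusted p = 0.000468), from a day 0 mean of 6.97 ± 0.0444 (SD, n = 2) to 9.21 and 9.52. Clec2d, which encodes a lectin-like ligand of an NKR-P1 receptor, rose by 1.85 ± 0.28 (adjusted p = 0.00717). The myeloid lectin gene Clec7a (0.46), Clec1a (0.65) and Klrb1f (0.55, or 0.30 with the mean of its probe sets) also rose, Clec1a and Klrb1f from day 0 values below the dim reference. These 3 calls were lost without day 0 replicate 2 (limma adjusted p = 0.0695, 0.0611 and 0.103), and that of Klrb1f also without day 8 replicate 1 (0.0559) and with a crossed replicate block (0.0668). The gene that fell was Olr1, a receptor for oxidized lipoprotein outside the NK receptor families, from 10.54 and 10.53 to 7.71 and 7.70 (-2.83 ± 0.0707, adjusted p = 0.000232). The Ly49 receptor genes Klra1, Klra2, Klra5, Klra7, Klra8 and Klra17 were not called, with differences from -0.30 to 0.50, although Klra5 was called without day 8 replicate 1 (0.70; limma adjusted p = 0.0054) and under 3 other alternatives, and Klra7 under 3, among them median-centred arrays (-0.37; 0.0307).

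**Figure D3:**
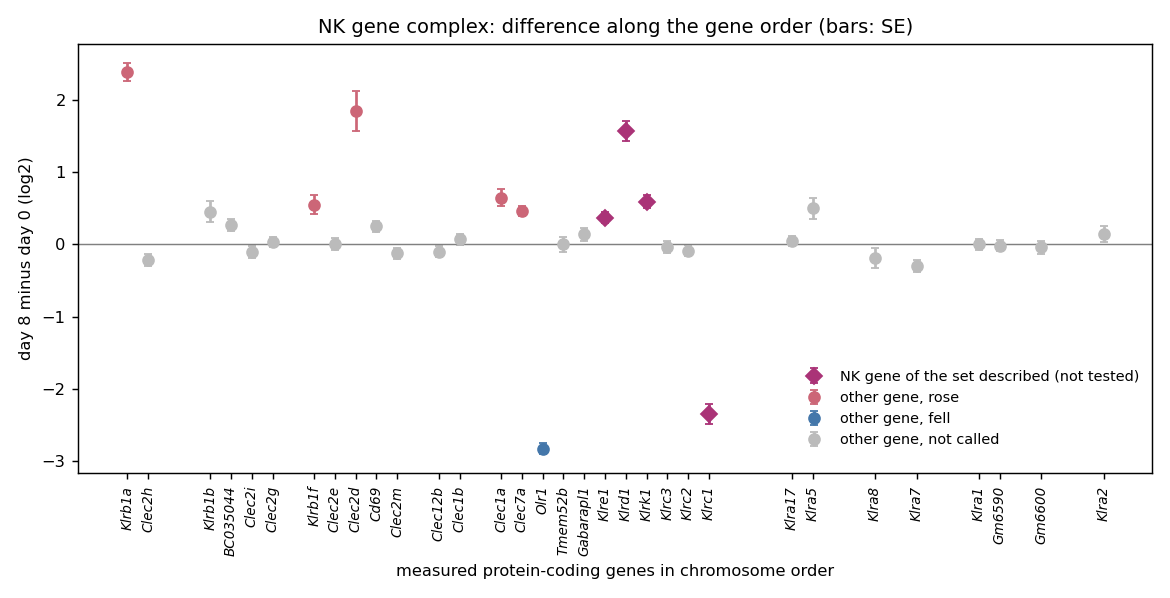
Difference between day 8 and day 0 means (log2, y axis; bars are the SE of the limma fit) for the 32 measured protein-coding genes of the NK gene complex in chromosome order (x axis, not to distance). Diamonds are Klre1, Klrd1, Klrk1 and Klrc1, which were not tested; circles are the other 28 genes, of which 5 rose and Olr1 fell. Klrc1 at -2.35 lies a few genes from Klrd1 at 1.57.

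Of 15 measured adaptors and signalling partners of the receptors, 8 rose and the other 7 were not called (limma; median 0.307, against 0.0228 over all genes, of which 14.0% rose). The number that rose without day 0 replicate 2 was 4. Hcst, the gene of the NKG2D adaptor DAP10, had 7.44 and 7.12 at day 0 and 7.71 and 7.76 at day 8 (0.46 ± 0.121, limma adjusted p = 0.0415). Its call was lost without day 0 replicate 2 (0.29; adjusted p = 0.165) and without either day 8 array (0.0608 and 0.0814), with quantile normalization (0.063) and with a replicate block (0.0653) or a crossed one (0.0596). Tyrobp, the gene of the adaptor DAP12, rose from 11.42 and 11.05 to 12.12 and 12.21 (0.93 ± 0.135, limma adjusted p = 0.00642). The inhibitory phosphatase gene Inpp5d rose by 0.94 (0.53 with the mean of its probe sets), the kinase gene Fyn by 0.77 and Fcer1g, an Fc receptor chain gene, by 0.71. Tyrobp, Fcer1g and Inpp5d are also expressed by macrophages. Of 12 macrophage markers 8 rose, with a median of 0.828, and their mean log2 value was 10.33 and 10.40 at day 0 and 11.05 and 10.87 at day 8. The part of macrophages in these values was not tested.

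Of 29 symbols listed for other NK receptors 19 were measured; 4 of them rose, where 14.0% of all genes did, and 15 were not called (median 0.12; 0.061 without day 8 replicate 1, 0.078 without day 0 replicate 2, 0.051 with median-centred arrays and 0.251 with spike-in scaling), and 1, Klrb1a, rose without day 0 replicate 2, against 7 without day 8 replicate 1 or with spike-in scaling. Besides Klrb1a and Klrb1f these were Fcgr3, the gene of the low-affinity IgG receptor that macrophages also carry (0.49), and Slamf6, a SLAM family receptor gene (0.44). Without day 0 replicate 2 the calls of Fcgr3 (limma adjusted p = 0.064) and Slamf6 (0.0998) were lost, and that of Slamf6 also without day 0 replicate 1 (0.0656) and with the mean of its probe sets (0.17; 0.106). Cd244a, the gene of the receptor 2B4, had 7.33 and 7.36 at day 0 and 7.58 and 8.24 at day 8 and was not called (0.56 ± 0.212, limma adjusted p = 0.108). It was called without day 8 replicate 1 (0.89; 0.00168) and with spike-in scaling (0.69; 0.0449), and was at 0.23 without day 8 replicate 2.

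Of 12 measured transcription factors of NK development 3 rose, 1 fell and 8 were not called, where 14.0% of all genes rose and 14.7% fell (median 0.125; 0.055 with median-centred arrays and 0.256 with spike-in scaling), and 2 rose without day 0 replicate 2. Ikzf1, which encodes Ikaros, rose by 1.11 (0.58 with the mean of its probe sets) and the repressor genes Zeb2 and Prdm1 by 0.90 and 0.67. Gata3 fell by 0.44, but it was dim, with means of 5.94 at day 0 and 5.50 at day 8. These lie below the dim reference given above, so whether Gata3 was above background is not known. Without day 0 replicate 2 the calls of Prdm1 (limma adjusted p = 0.0647) and Gata3 (0.0611) were lost, and that of Gata3 also without day 0 replicate 1 (0.0908) and with spike-in scaling (0.0569). Tbx21, which encodes T-bet, the T-box partner of Eomes in NK cells, was not called (0.17 ± 0.0782, limma adjusted p = 0.18).

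Genes of cytokines that sustain NK cells, and of their receptors, included several that rose. Il15, whose product is read by the Il2rb chain, rose from 7.28 and 7.24 to 8.25 and 8.60 (1.16 ± 0.127, limma adjusted p = 0.00262). Il18 rose by 1.82 and Ebi3, a chain of IL-27, by 0.67; these were the 3 called genes among 7 measured cytokine ligands (median 0.095). Of 14 measured receptor and signalling genes 6 rose and 1 fell (median 0.279). Over all genes, 14.0% rose and 14.7% fell. With a crossed replicate block 3 of the 14 receptor and signalling genes rose and 1 fell. Leaving out the dimmest 40% of genes kept only 5 of the 14, of which 3 rose and 1 fell, with no call lost among them. The 6 that rose in the fit of all genes included the kinase genes Jak1 (0.65) and Jak3 (0.46), the IL-15 receptor alpha gene Il15ra (0.61, or 0.38 with the mean of its probe sets) and Il18r1 (0.51). The IL-18 receptor accessory gene Il18rap fell, from 9.19 and 9.41 to 8.22 and 8.06 (-1.16 ± 0.107, limma adjusted p = 0.00166). Both IL-18 receptor chains were thus called, in opposite directions, but Il18r1 was dim, with means of 5.61 at day 0 and 6.12 at day 8. These lie below the mean of the dim reference given above, so whether Il18r1 was above background is not known. Without day 0 replicate 2 the calls were lost for Il15ra (adjusted p = 0.0811, and 0.0525 with a crossed block), Il18r1 (0.064), Jak3 (0.0757) and Ebi3 (0.0534).

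Ligands of these receptors, read from the whole tumor, went both ways. Of 13 measured genes 4 rose, 2 fell and 7 were not called, where 14.0% of all genes rose and 14.7% fell. The median was 0.009, but -0.028 without day 0 replicate 2, -0.06 with median-centred arrays and -0.047 with quantile normalization. Without probe sets marked for cross-hybridization 12 genes were measured, of which 3 rose and 2 fell, with a median of -0.013. The cadherin genes Cdh1 and Cdh2, whose products Klrg1 binds, fell by 1.20 ± 0.13 and 0.92 ± 0.0737 (limma adjusted p = 0.00253 and 0.00116), Cdh1 from 11.62 and 11.51 to 10.20 and 10.54. Klrg1 itself was higher at day 8, as given above. The MHC class I genes H2-K1 and H2-D1, whose leader peptides or products inform inhibitory NK receptors, rose by 1.09 and 0.93, and their light chain gene B2m by 0.49, a call lost without day 0 replicate 2 (limma adjusted p = 0.0877). The H2-K1 and H2-D1 values come from probe sets marked for cross-hybridization, so they may share signal of related class I genes. With the mean of each gene's probe sets they were 1.04 and 0.63. The rise that was missing without such probe sets was that of H2-K1 or H2-D1. The NKG2D ligand genes H60c (-0.04 ± 0.0777, limma adjusted p = 0.782) and Ulbp1 (-0.12 ± 0.0809, limma adjusted p = 0.317) were not called. The Qa-1 gene H2-T23 and other NKG2D ligand genes were not analysed here.

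Of 16 cytotoxic effector genes 6 rose and 10 were not called, where 14.0% of all genes rose. Without day 8 replicate 1, 9 rose, and without day 0 replicate 2, 2 did. The median was 0.259, but 0.424 without day 8 replicate 1 and 0.155 without day 8 replicate 2. Gzma, a granzyme gene, had 9.06 and 8.45 at day 0 and 10.58 and 12.05 at day 8, so the day 8 arrays were well apart (2.55 ± 0.487, limma adjusted p = 0.0146). Serpinb9, which encodes an inhibitor of granzyme B, rose by 1.07, the granule membrane gene Nkg7 by 0.93 and the chemokine gene Ccl5 by 0.65. The call of Gzma was lost without day 0 replicate 2 (0.0915) and with trend and robust eBayes (0.0834), and that of Ccl5 without day 0 replicate 2 (0.42; 0.0998), without day 8 replicate 2 (0.0681) and with a replicate block (0.0603). The perforin gene Prf1 (0.42 ± 0.165, limma adjusted p = 0.118), Gzmb (0.64 ± 0.321, adjusted p = 0.203) and the interferon gamma gene Ifng (-0.07 ± 0.0775, adjusted p = 0.582) were not called. With a crossed block Prf1 and Gzmb were called (limma adjusted p = 0.0434 and 0.043), and Prf1 also with spike-in scaling (0.049). With the mean of its 2 probe sets, however, Prf1 was at 0.10 and was not called (limma adjusted p = 0.372). Without day 8 replicate 1 the differences of Prf1 and Gzmb were 0.63 and 1.08, and without day 8 replicate 2 they were 0.21 and 0.19.

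**Figure D4:**
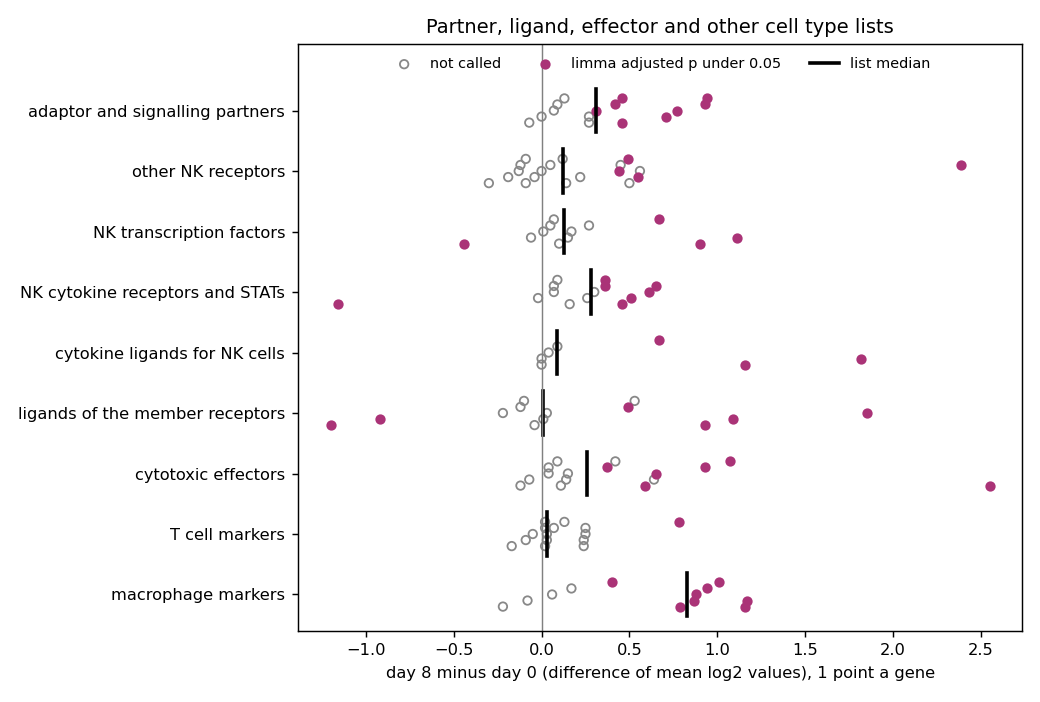
Difference between day 8 and day 0 means (log2, x axis) of each measured gene of 9 lists (y axis), 1 point a gene; filled points passed a limma adjusted p of 0.05, open points did not, and black bars are list medians. Medians run from 0.009 (ligands of the receptors) to 0.828 (macrophage markers), and T cell markers centre on 0.032.

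Several of these genes are shared by T cells, so T cell markers were read on the same arrays. Of 15 markers 1 rose and 14 were not called (median 0.032), where 14.0% of all genes rose and 14.7% fell. The mean log2 value of these markers was 7.21 and 7.15 at day 0 and 7.28 and 7.32 at day 8. These values were close to those of the dim reference given above. Genes such as Cd3g (means 5.64 and 5.67) and Cd8b1 (5.55 and 5.57) lay below it. Whether the dim markers were above background is therefore not known. With spike-in scaling 4 rose (median 0.163), with the mean of each gene's probe sets or without day 8 replicate 1, 2 rose, and with median-centred arrays the median was -0.038. The one that rose was Thy1 (0.78), which stromal cells also express. The T cell receptor complex genes Cd3d (-0.05 ± 0.0744, limma adjusted p = 0.693), Cd3e (0.25 ± 0.076, adjusted p = 0.0637) and Cd3g (0.03 ± 0.0903, adjusted p = 0.835) were not called. Neither were the CD8 genes Cd8a and Cd8b1 (0.07 and 0.02). Cd3e was called with spike-in scaling (0.38, limma adjusted p = 0.0164). It was also called when genes with several probe sets were averaged (limma adjusted p = 0.0462), although Cd3e has only 1 probe set and its difference stayed at 0.25. The mean log2 value of 8 endothelial markers, of which 6 rose and 1 fell, was 8.68 and 8.64 against 9.11 and 9.47, and 8 of 8 fibroblast markers rose. With day 0 replicate 2 left out these counts were 3 endothelial genes that rose and 1 that fell, and 4 fibroblast genes that rose. Of 5 innate lymphoid markers 2 rose (Itga1 and Rora) and 1 fell (Gata3), of which 1, Itga1, was called without that array. Of 7 B cell markers 1 rose, and of 7 dendritic cell markers 4 did (2 without day 0 replicate 1 or with the crossed block). Without day 0 replicate 1, 3 endothelial genes rose. The part of these cell types in the values of the NK genes was not tested.

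Genes whose 4 values were most like those of Klrc1 were found by the Euclidean distance between values centred on each gene's mean, over 4 arrays and 18193 genes. They were the fatty acid ligase gene Acsl6 (distance 0.189), the retinol carrier gene Rbp4 (0.225), Cfap69 (0.246), the galectin gene Lgals2 (0.28) and Mfap3l (0.28), with differences from -2.51 to -2.11. Acsl6 had 10.91 and 11.03 at day 0 and 8.92 and 8.57 at day 8, and Lgals2 had 12.48 and 12.28 against 10.05 and 10.02. Klrd1 was closest to Tspyl3 (0.0751), the G protein regulator gene Rgs2 (0.0999), Cdc42ep3 (0.102), the cathepsin gene Ctsk (0.103) and the lymphoid GTPase gene Gimap9 (0.104), with differences from 1.49 to 1.60. The nearest gene to Klrk1 was Tnfsf10, a gene of the effector list that encodes the death ligand TRAIL (distance 0.0136), with 7.43 and 7.39 at day 0 and 7.91 and 8.10 at day 8. It was followed by Foxs1, Armcx2, the thyroid hormone receptor gene Thra and the AP-1 gene Jun, at distances up to 0.0372. With 2 arrays a group, many genes share a pattern of this kind.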

How the data were processed

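Total RNA of 4 liver tumors was amplified, biotin-labelled and hybridised to 1 Affymetrix array each. The deposited table holds log2 values. The authors made them with RMA and list limma 3.14.4, per the submitters' processing notes. The genome build is not given in the sources used here. Of 45101 probe sets (values from 4.655 to 14.928), 34945 had exactly 1 gene symbol, 932 several, 9160 none, and 64 were controls; 34741 matched a RefSeq gene ID and 0 symbols changed. A gene was represented by its brightest such probe set. The 18193 genes were fitted with limma 3.58.1 (R 4.3.3), day 8 minus day 0, with 2 residual and 5.47 moderated degrees of freedom and Benjamini-Hochberg adjustment over all genes; adjusted p under 0.05 was called. SEs of the NK gene probe sets come from the same fit over all probe sets. The number of arrays limits the precision. The fit was tested on simulated data.

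The NK genes and the lists were chosen with earlier results of these data known. Genes named from a list were its called members with the largest differences, up to 4 in each direction, with the direct partners Hcst, Tyrobp and Cdh1. Genes named though not called, and Olr1, Clec7a and Clec1a, were chosen after their values were seen. Nearest genes were the 5 with the smallest distance, leaving out predicted genes and clones. Protein sequences were not used here. Plots come from matplotlib 3.10.9 under Python 3.11.15.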

Additional observations from a re-analysis of the deposited data

How the results depend on the processing

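The number of genes called was 5223. It was 10272 when all 45037 probe sets were tested, and from 2228 to 5055 with 1 array left out (3259 and 2228 without day 0 replicates 1 and 2). Calls within the 7 lists of NK partners, factors, ligands and effectors (cell type markers not counted), 38, ran from 18 (without day 0 replicate 2) to 45 with 1 array left out. The difference of Klrc1 had the same sign in all 14 alternatives, from -2.68 in its other probe set to -2.16 without day 8 replicate 2. A replicate block, crossed or not, and trend and robust eBayes cannot change a difference of means in this design. Those alternatives only repeat the main value. So does leaving out dim genes or probe sets marked for cross-hybridization, where a gene keeps the same probe set. The median of the other genes, 0.48, was 0.61 with spike-in scaling and from 0.45 to 0.53 with 1 array left out. It was -0.02 when the dimmest 40% of genes were left out, which keeps Il2rb alone of those 8 genes. Il2rb, at -0.02, was at 0.17 with the mean of its probe sets, 0.11 with spike-in scaling and 0.37 in its other probe set. Of 113 alternative values for single genes, such repeats included, 108 kept the sign, and the 5 that did not were of Il2rb. The share of higher genes among those called was 48.8%, 38.7% after median centring of arrays and 70% after spike-in scaling, which moved the median of all genes to 0.154. Whether the replicate numbers tie the arrays together was not settled. A replicate block called 4323 genes and a crossed block 3954, while same-numbered arrays deviated with a correlation of -0.1538. Any block also takes from the 2 residual degrees of freedom, which can lower the count by itself. Spike-in scaling and the crossed block were chosen after seeing the data. These arrays carry no presence call.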
